A study of Rattus norvegicus with 9 samples.

Results

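Hypoplastic fetal rat lungs that had been treated with extracellular vesicles were compared with control fetal lungs, to describe what still differed between them after treatment. The comparison used 6 of the 9 libraries of the study, 3 from control lungs and 3 from treated lungs, chosen by their treatment and tissue labels. All lungs came from Sprague-Dawley rats. The treatment label of the control lungs reads none. The treated lungs were labelled as hypoplastic and as given AFSC-EV, vesicles released by stem cells of the amniotic fluid, and the series title names oligohydramnios, a shortage of amniotic fluid, as the cause of the hypoplasia. The remaining 3 libraries were of hypoplastic lungs whose treatment label also reads none, and their values are set beside the others for reference. Gestational age, the dose, route and timing of the vesicles, the source of the stem cells, litter and sex are not given in the labels. Nothing says that the lungs came from separate litters, so the p-values measure the spread between these samples.

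The fetal lung grows as an epithelial tube that branches into the surrounding mesenchyme, guided by fibroblast growth factor, hedgehog, Wnt and bone morphogenetic protein signals that pass between the layers. Late in gestation the tips of the tree form alveolar type I cells, which are flat and serve gas exchange, and alveolar type II cells, which make surfactant. Fluid that the lung secretes keeps it stretched, and that stretch is known to drive its growth, so a loss of amniotic fluid leaves a small lung with fewer branches. Extracellular vesicles are membrane-bound particles that carry protein and RNA from one cell to another.

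Expression was read from total RNA depleted of ribosomal RNA, as estimated counts per gene. The control libraries held 56922779 to 72252538 estimated counts and the treated libraries 65452123 to 88243188. Of 17465 genes in the table, 12966 passed the filter on low counts. Nkx2-1 and Sftpc, which mark lung epithelium, were well above 100 CPM in all 6 libraries. A library of each group stood apart in some gene groups. Control 2 had the highest levels of alveolar epithelial genes of the 6 libraries and treated 3 the highest of macrophage and interferon response genes. Values without either are given beside many, but not all, of the differences that shrank without it. By the levels of Xist and of Y-linked Ddx3y and Eif2s3y, 2 control lungs and 1 treated lung carried Y-linked RNA, so sex may be unevenly spread over the groups, and control 1 held both kinds of RNA. The RNA came from whole lung, where fewer cells of a type and less RNA per cell cannot be told apart.

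Few genes separated the treated from the control lungs. The quasi-likelihood test of edgeR, the main test, called none of the 12966 genes (0%) at an adjusted p under 0.05, and the smallest adjusted p was 0.185, for Lepr. Without adjustment, 541 genes had a p under 0.05 (4.17%), 217 of them higher in treated lungs (1.67%) and 324 lower (2.5%). A Wald test with DESeq2 called 14 genes (0.108%), 11 higher in treated lungs (0.0848%) and 3 lower (0.0231%), and limma voom called 0, with 500 at an unadjusted p under 0.05. In 1218 genes (9.39%) the 3 treated libraries lay wholly above or wholly below the 3 controls, 567 above (4.37%) and 651 below (5.02%). The counts below are read against these shares, and every difference below is a treated minus control log2 fold change from edgeR unless named otherwise.

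For most genes the data bounded the difference. The 95% interval of the log2 fold change, the difference of group levels on a log2 scale, lay within a 2-fold change for 10060 genes (77.6%). The median log2 fold change over all genes tested was 0.0028, with 6566 genes above 0 and 6400 below. Its 5th and 95th percentiles were -0.50 and 0.53, and its median standard error (SE) was 0.18. Estimates beyond 2-fold numbered 227 higher and 184 lower.

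**Figure D1:**
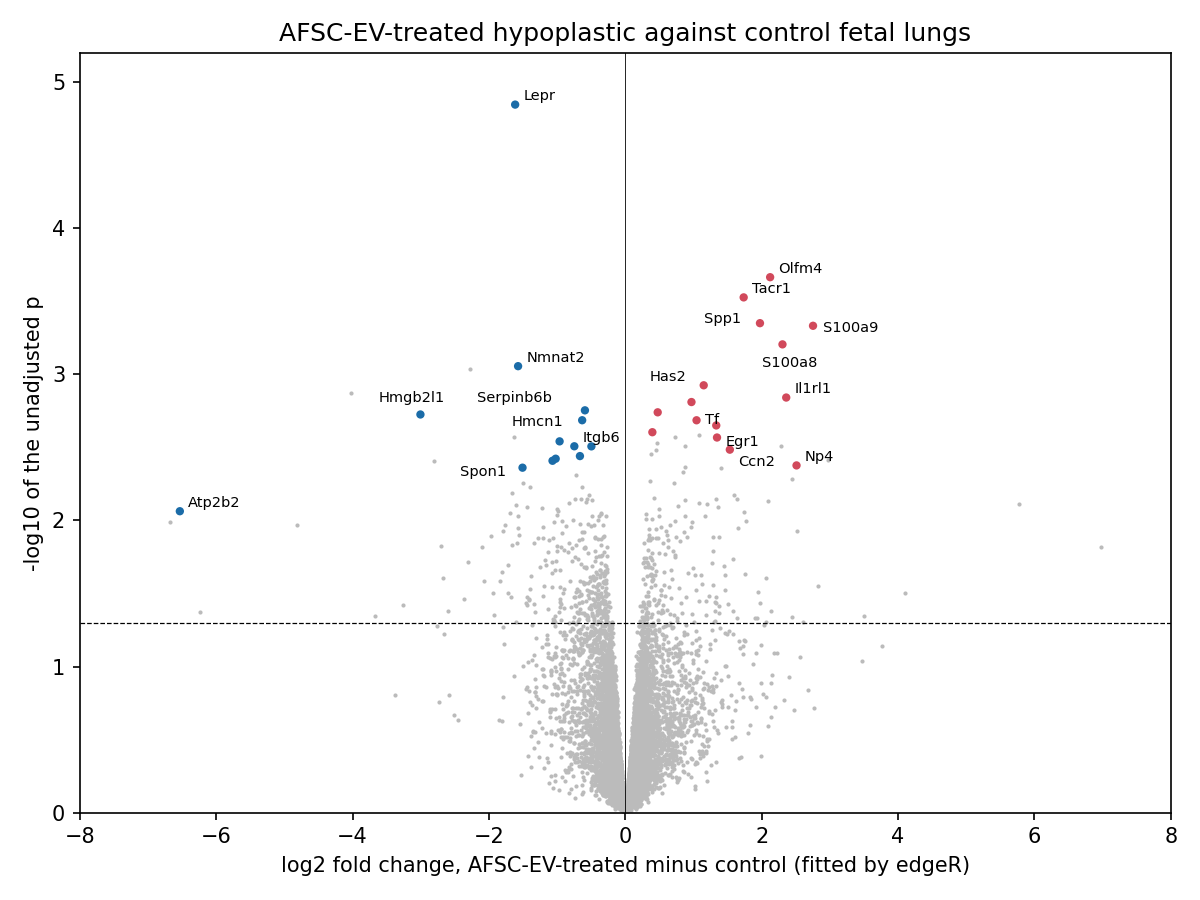
Treated minus control log2 fold change of each gene tested (horizontal axis) against minus log10 of its unadjusted edgeR p (vertical axis), with 1 grey point per gene, coloured points for the genes named by smallest p or by a DESeq2 call, and a dashed line at the threshold of 0.05. Lepr, at -1.61, stands above all other genes, and the calprotectin genes S100a8 and S100a9, at 2.31 and 2.75, lie far to the right.

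Lepr had the smallest p of all genes tested. This gene, the receptor of the fat-derived hormone leptin, stood at 25.2, 37.9 and 27.3 CPM (estimated counts per 1000000 of the TMM-scaled library size) in control lungs 1 to 3 and at 8.72, 9.47 and 11.3 CPM in treated lungs 1 to 3. The groups were far from overlapping, since the highest treated lung held less than the lowest control. The log2 fold change was -1.61 (SE 0.20, 95% interval -2.06 to -1.17), with an adjusted p of 0.185 by edgeR and 5.01e-10 by DESeq2. For the other 13 genes that DESeq2 called, edgeR's adjusted p was 0.998. Leprot, whose gene overlaps Lepr, differed by -0.10 (SE 0.12, unadjusted p = 0.41), and reads shared by both genes would be uncertain.

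Tacr1, the receptor of the neuropeptide substance P, showed the opposite direction. Its level was 1.36, 1.16 and 2.47 CPM in controls and 5.4, 4.58 and 6.87 CPM after treatment, which is a log2 fold change of 1.74 (SE 0.31, 95% interval 1.03 to 2.44), and every treated lung exceeded every control. DESeq2 gave an adjusted p of 0.000501. Il1rl1, the receptor of the alarmin interleukin-33, measured 1.2, 0.41 and 1.18 CPM in controls against 6.77, 2.83 and 5.01 CPM after treatment. The groups did not overlap, at a log2 fold change of 2.36 (SE 0.53) and a DESeq2 adjusted p of 0.00287.

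Spp1 encodes osteopontin, a secreted phosphoprotein that binds integrins and CD44. It stood at 3.57, 2.75 and 3.54 CPM in the controls and 11.9, 18.3 and 8.53 CPM in the treated lungs. All 3 treated lungs were higher, by 1.98 on the log2 scale (SE 0.38, 95% interval 1.13 to 2.82), with a DESeq2 adjusted p of 5.31e-05. In the untreated hypoplastic lungs the level was 63.5, 164 and 89.8 CPM, above every treated library. Tested against those lungs in the same edgeR fit, the treated lungs differed by -3.03 (SE 0.38, adjusted p = 0.186).

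S100a8 and S100a9 encode the 2 chains of calprotectin, an abundant protein of neutrophils. S100a8 measured 4.49, 4.57 and 2.71 CPM in the controls and 20.1, 7.82 and 30.1 CPM in the treated lungs. S100a9 measured 3.95, 2.96 and 2.06 CPM in the controls and 17.8, 6.93 and 35.8 CPM in the treated lungs. In both genes the treated lungs lay wholly above the controls, treated 2 being the closest to them. The log2 fold changes were 2.31 (SE 0.46) and 2.75 (SE 0.53), with DESeq2 adjusted p-values of 7.36e-05 and 7.19e-06. Without treated 3 these fold changes were 1.84 and 2.05. Olfm4, a secreted glycoprotein of neutrophil granules and mucosal epithelium, had the same order of treated libraries, at 5.49, 3.89 and 4.11 CPM in the controls and 22.1, 9.42 and 27.4 CPM in the treated lungs. Its log2 fold change was 2.12 (SE 0.37), with a DESeq2 adjusted p of 6.55e-06. Np4, a neutrophil defensin of a multigene family whose copies may share reads, measured 0.536, 0.945 and 0.231 CPM in the controls and 3.42, 1.52 and 4.57 CPM in the treated lungs (log2 fold change 2.51, SE 0.67, DESeq2 adjusted p = 0.036).

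Markers of neutrophils as a group had higher estimates in treated lungs. Of 14 neutrophil markers, S100a8 and S100a9 among them, 13 were tested, 13 had an estimate above 0, 5 had an unadjusted p under 0.05 and 5 did not overlap. The median log2 fold change was 1.28, against 0.0028 over all genes tested, and ran from 0.73 without treated 3 to 1.7 without treated 2. Their summed level was 32.9, 27.8 and 25.7 CPM in the controls and 80.7, 50 and 118 CPM in the treated lungs, and none of the 14 was at 0 in all libraries of a group. S100a8, S100a9 and Lcn2 made up most of that sum in each of these libraries. Summed without them, treated 2 did not lie above the controls. Camp, the cathelicidin of neutrophil granules, measured 1.41, 1.6 and 0.719 CPM in the controls and 5.7, 1.85 and 5.14 CPM in the treated lungs, a difference of 1.78 (SE 0.56, unadjusted p = 0.0101) without overlap. Lcn2, an iron-sequestering protein of neutrophils and epithelium, differed by 0.90 (SE 0.55, unadjusted p = 0.134), at 13.8, 10.5 and 11.7 CPM in the controls and 20.2, 26.4 and 20.5 CPM in the treated lungs. The untreated hypoplastic lungs held 144, 215 and 121 CPM of the same genes. The part of neutrophil number in the differences of S100a8, S100a9, Olfm4 and Np4 was not tested.

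**Figure D2:**
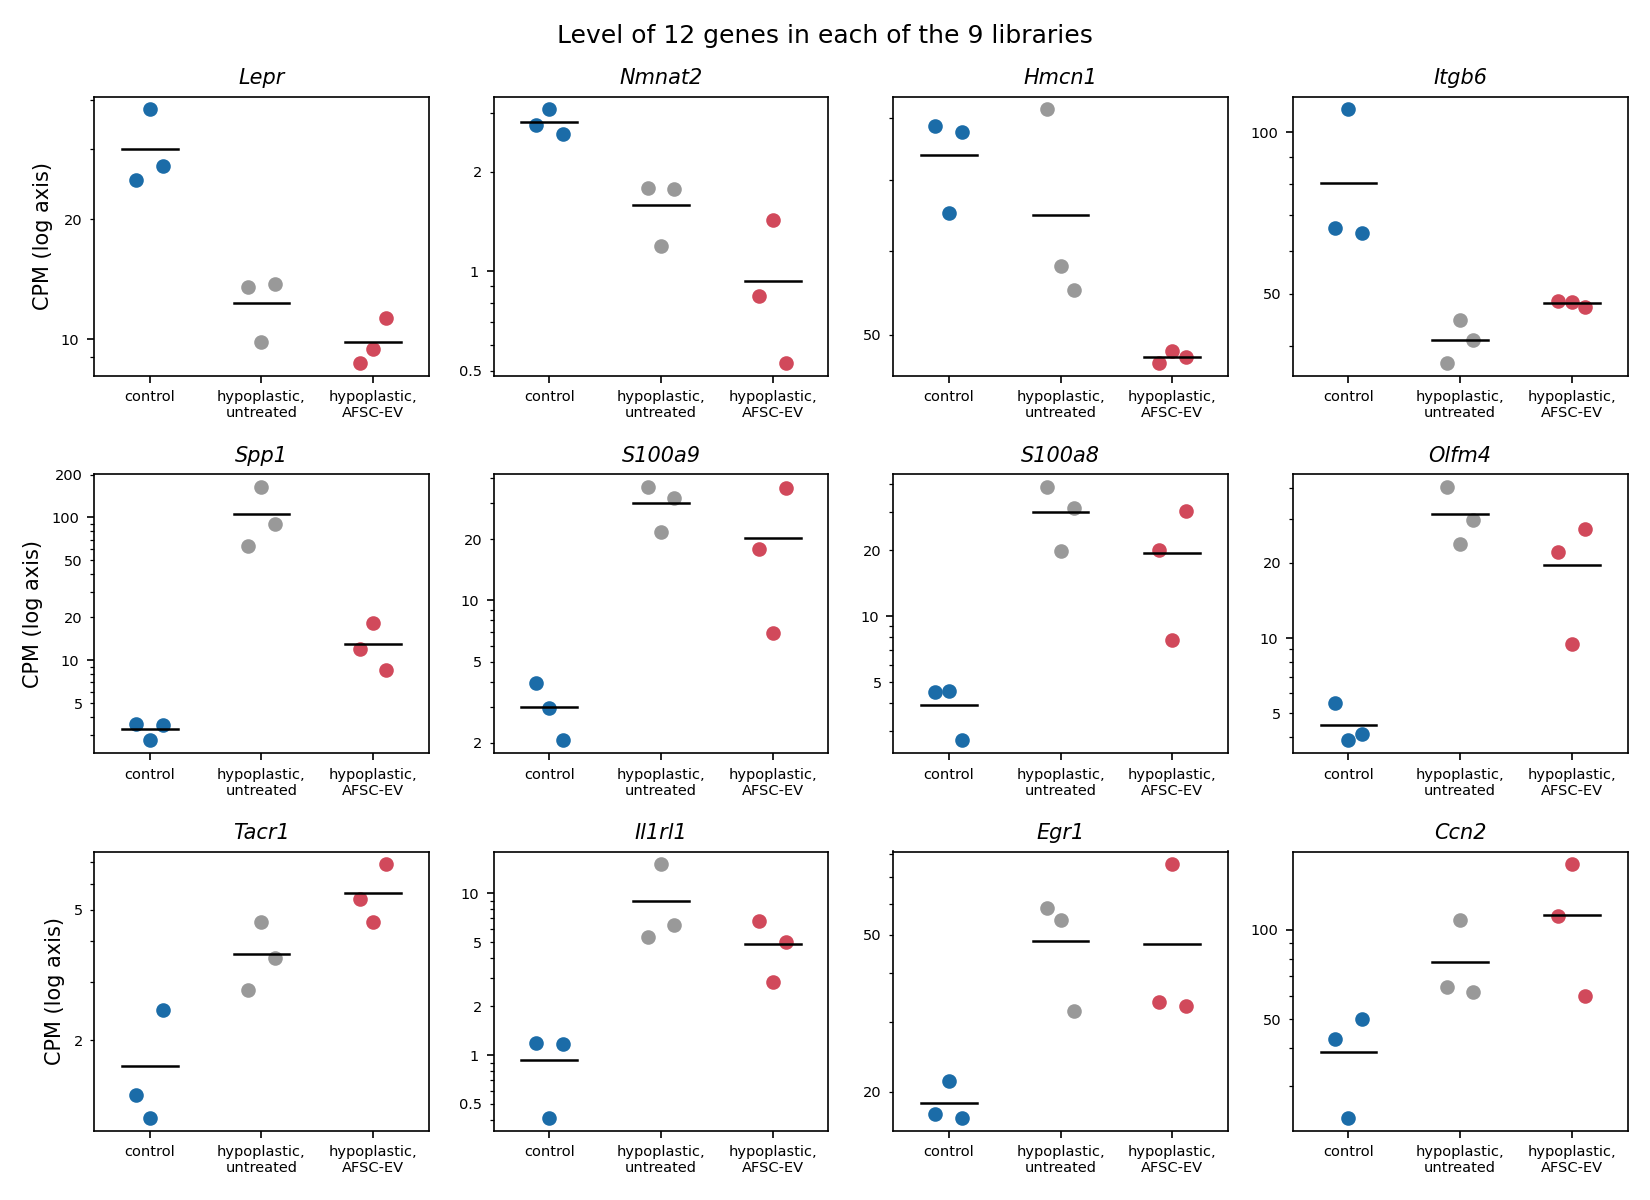
Level of 12 genes (CPM, log axis) in the 3 control, 3 untreated hypoplastic and 3 treated libraries, 1 point per library in order of replicate, with a bar at the group mean. The treated points lie wholly below the controls for Lepr, Nmnat2, Hmcn1 and Itgb6 and wholly above them for the other 8 genes, and for Spp1 the treated points, 8.53 to 18.3 CPM, fall between those of both other groups.

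The remaining DESeq2 calls were of genes of matrix, signalling and metabolism. Has2, which synthesizes hyaluronan, measured 3.06, 1.89 and 2.59 CPM in the controls and 7.04, 5.78 and 3.96 CPM in the treated lungs (log2 fold change 1.15, SE 0.25, DESeq2 adjusted p = 0.036). Tf, the iron carrier transferrin, measured 26.9, 20.6 and 23.7 CPM in the controls and 60.4, 29.5 and 57.2 CPM in the treated lungs (log2 fold change 1.04, SE 0.25, DESeq2 adjusted p = 0.046). Neither gene overlapped between the groups, though control 1 and treated 2 were close for Tf. Egr1, an immediate-early transcription factor, stood at 17.6, 21.3 and 17.2 CPM in the controls and 33.8, 75.6 and 33.1 CPM in the treated lungs, where treated 2 was more than 2-fold above the other treated lungs. Its log2 fold change was 1.34 (SE 0.34), and 0.84 without treated 2, with a DESeq2 adjusted p of 0.0376.

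On the lower side, Nmnat2, an enzyme of NAD synthesis known from axons, measured 2.77, 3.09 and 2.59 CPM in the controls and 0.843, 1.42 and 0.529 CPM in the treated lungs. All treated lungs were below all controls, with a log2 fold change of -1.57 (SE 0.33) and a DESeq2 adjusted p of 0.036. Atp2b2, a plasma membrane calcium pump, was barely detected: its counts summed to 109 over the control lungs and to 1 over the treated lungs. The ratio of treated to control level was 0.00786, with a 95% exact binomial interval of 0.000197 to 0.0447 that covers counting error only, and 76 of the control counts came from control 2. DESeq2 gave Atp2b2 an adjusted p of 0.036.

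The DESeq2 calls depended on single libraries to different degrees. When each of the 6 libraries was left out in turn, S100a8, Olfm4, Spp1, Tacr1 and Lepr were called every time. Il1rl1 lost its call without treated 1 and S100a9 without control 3. Egr1 lost it without control 1, control 3 or treated 2. Tf and Atp2b2 were called only without control 1 or without treated 2, Np4 only without control 2 or treated 2, Has2 only without control 1 or treated 3, Ccn2 only without control 3 or treated 3, and Nmnat2 only without treated 2. The number of DESeq2 calls ran from 12 without treated 1 to 29 without control 1, and 7 to 11 of the 14 were among them.

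Neither tool called the remaining genes that were named for a small p. Hmcn1 (hemicentin 1), a matrix protein of basement membranes, measured 78.7, 65.2 and 77.6 CPM in the controls and 47, 48.3 and 47.6 CPM in the treated lungs. The 3 treated values were nearly identical and lay below all controls, at a log2 fold change of -0.63 (SE 0.15, unadjusted p = 0.00206). Itgb6, the epithelial integrin subunit that activates latent TGF-beta, measured 66.4, 110.5 and 64.8 CPM in the controls and 48.5, 48.2 and 47.3 CPM in the treated lungs, again with tight treated values below the controls (log2 fold change -0.75, SE 0.19, unadjusted p = 0.00311). Without control 2, its highest library, the difference was -0.45. Gja1 encodes connexin 43, the main gap junction protein of many tissues, and differed by -0.50 (SE 0.13, unadjusted p = 0.00311) from a control mean of 1053 ± 127 CPM (SD, 3 lungs).

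The others of these lower genes showed the same separation. Spon1 (spondin 1, a secreted matrix protein) differed by -1.51 (SE 0.41, unadjusted p = 0.00435), at 9.18, 3.91 and 6.55 CPM in the controls and 3.57, 1.73 and 1.61 CPM in the treated lungs. Trpm3, a cation channel, differed by -0.96 (SE 0.24, unadjusted p = 0.00287). Veph1, whose gene holds Ptx3 so that reads of both would be uncertain, differed by -1.07 (SE 0.28, unadjusted p = 0.0039), and by -0.66 without control 2. The small GTPase gene Arl4d differed by -0.66 (SE 0.17, unadjusted p = 0.00363), Hfm1, a helicase of meiosis, by -1.02 (SE 0.27, unadjusted p = 0.00378), and Serpinb6b, of the serpin family of protease inhibitors, by -0.59 (SE 0.14, unadjusted p = 0.00176). All of these had control and treated libraries that did not overlap, which their choice by smallest p favours. Hmgb2l1 measured 60.5, 65.8 and 52.1 CPM in the controls and 4.05, 15.3 and 2.79 CPM in the treated lungs (log2 fold change -3.0, SE 0.71, unadjusted p = 0.00188), but by its name it resembles Hmgb2, and how reads of near copies were counted is not known. Hmgb2 itself measured 179, 181 and 164 CPM in the controls and 229, 282 and 187 CPM in the treated lungs (log2 fold change 0.41, SE 0.22, unadjusted p = 0.0903).

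On the higher side, Mcemp1, a membrane protein of mast and myeloid cells, measured 1.79, 0.874 and 1.17 CPM in the controls and 3.09, 3.25 and 3.38 CPM in the treated lungs (log2 fold change 1.33, SE 0.32, unadjusted p = 0.00224). Smaller differences came with tight replicates: Nolc1, a phosphoprotein of the nucleolus, measured 30.6, 27.4 and 26.2 CPM in the controls and 40.1, 39 and 37.9 CPM in the treated lungs (log2 fold change 0.48, SE 0.11, unadjusted p = 0.00182). Tomm7, a subunit of the mitochondrial protein import complex, measured 28.4, 29 and 29.5 CPM in the controls and 34.6, 41.2 and 38.6 CPM in the treated lungs (log2 fold change 0.40, SE 0.10, unadjusted p = 0.00249). Pcp4l1 differed by 0.97 (SE 0.22, unadjusted p = 0.00155). None of these 4 overlapped between the groups.

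Surfactant and alveolar type II genes lay mostly below the controls, and much of that rested on 1 control lung. Of 17 genes tested, 14 had a lower estimate and 4 of them an unadjusted p under 0.05, and 1, Scd, did not overlap. The median log2 fold change was -0.34, and -0.50 to -0.043 when single libraries were left out, the value nearest 0 being that without control 2. Sftpb, a surfactant protein needed for the surface film, measured 908, 2007 and 1362 CPM in the controls and 923, 958 and 765 CPM in the treated lungs. Control 2 was the highest library, control 1 lay within the treated range, and the log2 fold change was -0.69 (SE 0.24, unadjusted p = 0.0182). Sftpc, the surfactant protein specific to type II cells, measured 645, 951 and 873 CPM in the controls and 758, 595 and 567 CPM in the treated lungs and overlapped (log2 fold change -0.36, SE 0.22, unadjusted p = 0.129). Ctsh, a protease that processes surfactant proteins, measured 195, 536 and 313 CPM in the controls and 186, 201 and 158 CPM in the treated lungs (log2 fold change -0.93, SE 0.29, unadjusted p = 0.01), and Cd36, a fatty acid transporter, differed by -1.0 (SE 0.31, unadjusted p = 0.00913). Without control 2 the differences were -0.36 for Sftpb, -0.48 for Ctsh and -0.71 for Cd36. The summed level of the list was 4732, 8559 and 5868 CPM in the controls, 5613, 4867 and 4309 CPM in the treated lungs and 3937, 3686 and 3897 CPM in the untreated hypoplastic lungs.

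Alveolar type I genes followed a like pattern, with 13 of 15 lower, 3 of them at an unadjusted p under 0.05, and a median of -0.24 (-0.12 without control 2). Col4a3, a collagen chain of alveolar basement membrane, measured 11.8, 31.2 and 17.8 CPM in the controls and 10.8, 7.74 and 9.4 CPM in the treated lungs, a difference of -1.12 (SE 0.37, unadjusted p = 0.0137) without overlap, which was -0.67 without control 2. Its partner chain Col4a4 differed by -0.78 (SE 0.28, unadjusted p = 0.0188) and Cav1 (caveolin 1, a coat protein of membrane pits) by -0.51 (SE 0.21, unadjusted p = 0.0401), and without control 2 these were -0.41 and -0.22. Ager, the receptor for advanced glycation end products and a defining marker of type I cells, measured 42.2, 104 and 62 CPM in the controls and 42.2, 34.3 and 71.8 CPM in the treated lungs. The groups overlapped, at -0.49 (SE 0.38, unadjusted p = 0.236), and at -0.076 without control 2. Vegfa, the vascular growth factor, differed by 0.026 (SE 0.15).

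The transcription factors that specify lung epithelium lay close to the controls. None of 17 had an unadjusted p under 0.05, none was without overlap, and 16 had an interval within 2-fold. Nkx2-1, which defines the lung lineage, measured 356, 442 and 359 CPM in the controls and 441, 352 and 394 CPM in the treated lungs, and the groups differed by 0.039 with a 95% interval of -0.27 to 0.34. Sox9, a factor of the branching tips, measured 187, 107 and 157 CPM in the controls and 144, 175 and 136 CPM in the treated lungs and differed by 0.0094 (interval -0.49 to 0.51). Etv4, a target of fibroblast growth factor signalling, and Id2, a factor of the distal tips, differed by 0.22 (SE 0.15) and 0.26 (SE 0.18), and Cebpa, a factor of alveolar type II cells, by -0.24 (SE 0.20). The summed level of these factors was 1801 to 1871 CPM in the controls, 1836 to 1989 CPM in the treated lungs and 1625 to 1685 CPM in the untreated hypoplastic lungs.

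Of 26 ligands, receptors and targets tested among the signals that guide branching, 19 were higher and 7 lower, none had an unadjusted p under 0.05, and the median was 0.12 (-0.011 without control 2 and 0.28 without control 3). Fgf10, the mesenchymal growth factor that draws out new buds, measured 5.41, 4.78 and 5.71 CPM in the controls and 6.02, 5.24 and 4.88 CPM in the treated lungs, and the groups differed by 0.020 (interval -0.37 to 0.41). Wnt7b, an epithelial Wnt ligand, measured 24.9, 22.8 and 24.1 CPM in the controls and 36, 25.2 and 27.7 CPM in the treated lungs, and Nog (noggin, an antagonist of bone morphogenetic proteins) measured 2.3, 2.37 and 2.28 CPM in the controls and 3.4, 3.5 and 2.91 CPM in the treated lungs. These were the 2 members without overlap, both higher, at 0.31 (SE 0.18, unadjusted p = 0.116) and 0.50 (SE 0.39, unadjusted p = 0.235). Lef1, a transcription factor of Wnt signalling, differed by 0.40 (SE 0.22, unadjusted p = 0.1), which was 0.24 without control 2 and 0.27 without treated 3, and Ctnnb1 (beta-catenin) by -0.027 (SE 0.093).

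Genes of TGF-beta signalling had a median of 0.065, which was -0.075 without treated 3 and 0.16 without control 3. The ligand Tgfb1 measured 35.6, 17.4 and 45.7 CPM in the controls and 35.4, 39.5 and 51.7 CPM in the treated lungs and overlapped, at 0.36 (SE 0.32), or 0.055 without control 2 and 0.19 without treated 3. The receptor Tgfbr2 differed by -0.24 (SE 0.13), the mediator Smad3 by 0.057 (SE 0.17) and the inhibitor Smad7 by 0.25 (SE 0.14). Of 18 tested members Smad2 was the only one without overlap, and 15 had an interval within 2-fold.

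Of 18 mesenchymal and lipofibroblast genes listed, Lepr and Tacr1 among them, 17 were tested, with a median of 0.052 (-0.041 without control 2 and 0.28 without control 3). Fabp4, a fatty acid binding protein, measured 0.735, 0.785 and 1.18 CPM in the controls and 1.21, 2.86 and 2.8 CPM in the treated lungs, a low level without overlap (log2 fold change 1.33, SE 0.76, unadjusted p = 0.111), and Mfap4, a microfibril protein abundant in lung mesenchyme, differed by -0.049 (SE 0.23). Smooth muscle genes had 11 of 14 higher at a median of 0.28, which was 0.028 without control 2, where these genes were lowest (summed level 924, 487 and 1084 CPM in the controls and 636, 1228 and 1116 CPM in the treated lungs). Des, the muscle filament desmin, differed by 0.70 (SE 0.50), Lmod1 (leiomodin 1) by 0.40 (SE 0.31), Myocd (myocardin) by 0.30 (SE 0.22) and Mylk (myosin light chain kinase) by 0.042 (SE 0.21). Without control 2, Des differed by 0.29 and Lmod1 by 0.24.

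Matrix genes gave a median of 0.083 over 18 tested of 20 listed, turning to -0.16 without control 2 and 0.41 without control 3. Tnc (tenascin C), a matrix protein of growing airways, measured 92.6, 71.8 and 120.5 CPM in the controls and 134, 139 and 128 CPM in the treated lungs and did not overlap (log2 fold change 0.49, SE 0.23, unadjusted p = 0.055). Of the elastic fibre genes, Fbln5 (fibulin 5) measured 69.4, 107 and 81 CPM in the controls and 73.8, 53.5 and 56.2 CPM in the treated lungs (log2 fold change -0.49, SE 0.19, unadjusted p = 0.0309) and Fbn2 (fibrillin 2) differed by -0.41 (SE 0.22, unadjusted p = 0.0995), both overlapping. Without control 2 the differences were 0.33 for Tnc, -0.30 for Fbln5 and -0.17 for Fbn2. Col3a1, a fibrillar collagen and the list member of highest CPM, differed by 0.051 (SE 0.52). Endothelial genes had a median of -0.062 (-0.13 without treated 2 and 0.028 without control 3) and 16 of 19 with an interval within 2-fold. Emcn (endomucin), a surface sialomucin of capillary and venous endothelium, measured 36.4, 34.2 and 35.5 CPM in the controls and 23.6, 31.4 and 25.9 CPM in the treated lungs and lay below the controls in all 3 treated lungs (log2 fold change -0.39, SE 0.14, unadjusted p = 0.0176). Pecam1 (CD31), Cldn5 (claudin 5) and Aplnr (apelin receptor), also of endothelium, differed by 0.0017, -0.15 and -0.17, each overlapping.

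**Figure D3:**
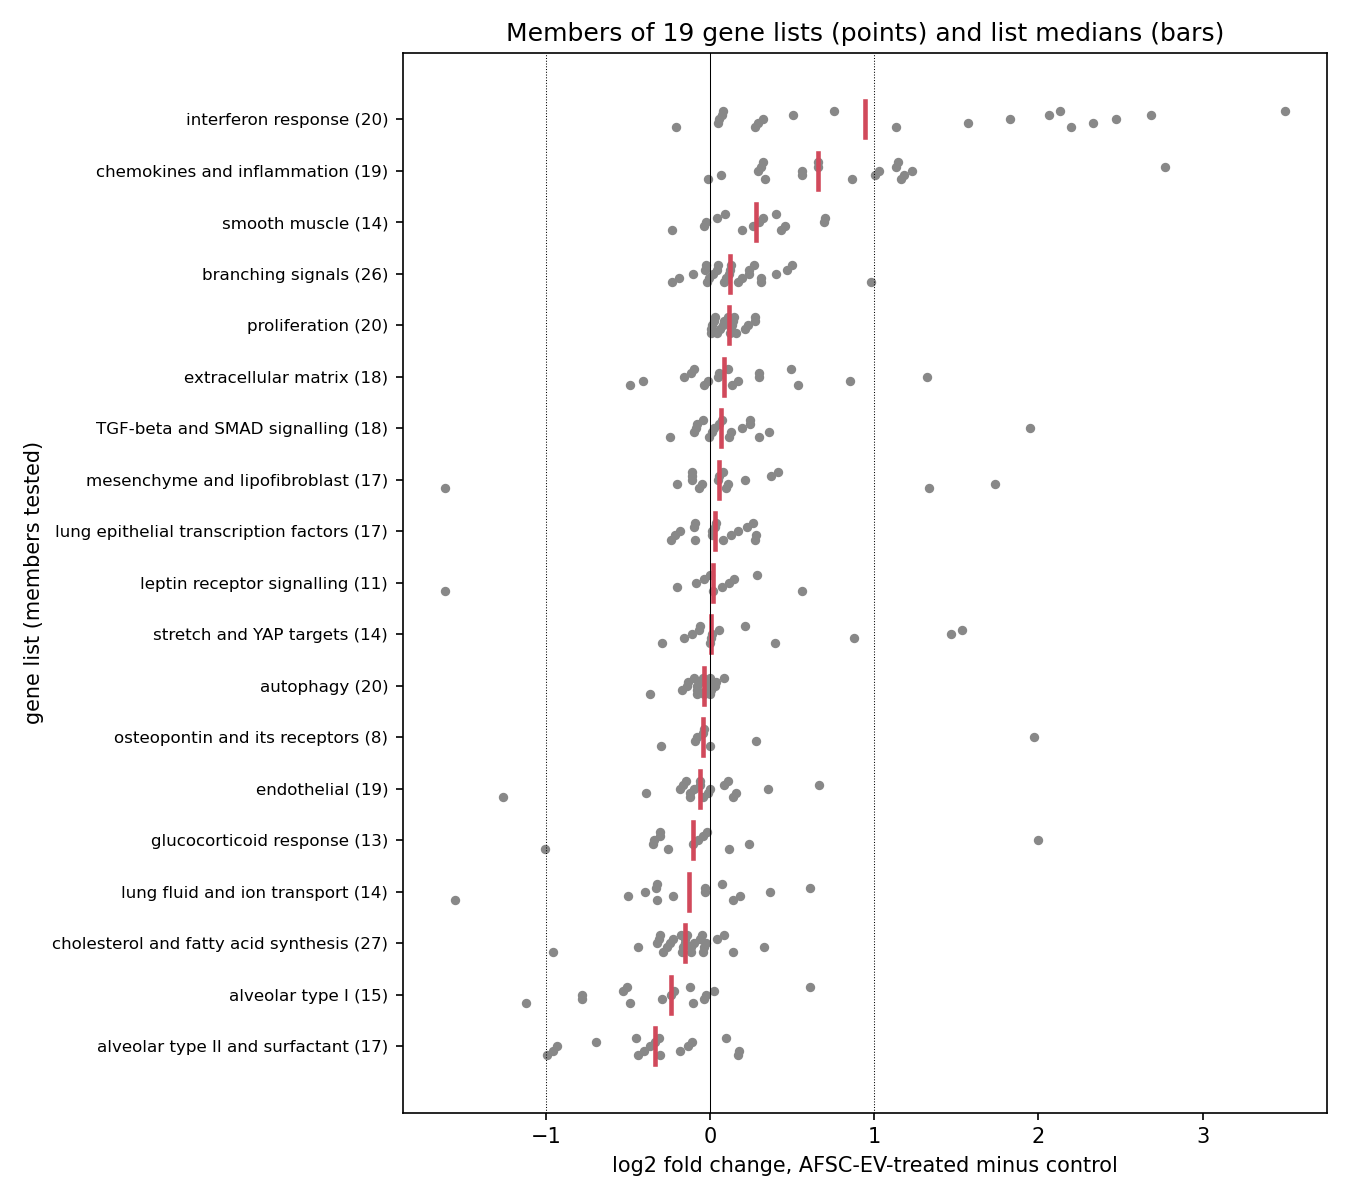
Treated minus control log2 fold change of each tested member of 19 gene lists (grey points) with the list median (red bar), ordered by median, and dotted lines at a 2-fold difference either way. Proliferation and autophagy genes fall within narrow bands around 0, and the interferon response list spreads from -0.21 to 3.5.

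Ccn2 was the leading gene of the list of stretch-responsive genes and targets of YAP, a co-activator that enters the nucleus when cells are stretched and binds DNA through TEAD factors. The 250 bases before the start of Ccn2 and of its relative Ccn1, as RefSeq places them on assembly GRCr8, are shown because they are the 2 members of that list with an unadjusted p under 0.05, with the TEAD motif GGAATG, searched on both strands, in capitals (CATTCC where it lies on the other strand). The Ccn2 window is at chr1:22624615-22624864 and the Ccn1 window at chr2:237225690-237225939, both on the minus strand.
Ccn2: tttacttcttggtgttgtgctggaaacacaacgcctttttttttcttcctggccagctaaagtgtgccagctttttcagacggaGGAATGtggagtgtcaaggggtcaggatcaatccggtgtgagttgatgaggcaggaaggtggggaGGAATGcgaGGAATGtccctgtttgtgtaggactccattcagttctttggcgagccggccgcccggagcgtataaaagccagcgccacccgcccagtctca
Ccn1: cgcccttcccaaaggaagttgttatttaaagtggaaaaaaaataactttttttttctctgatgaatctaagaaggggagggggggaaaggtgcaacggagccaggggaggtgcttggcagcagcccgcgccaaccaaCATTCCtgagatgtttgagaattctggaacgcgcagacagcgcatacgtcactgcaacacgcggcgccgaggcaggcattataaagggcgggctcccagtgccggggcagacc
The motif occurs 3 times in the Ccn2 window and 1 time in that of Ccn1. It is in 12.1% of all 33469 windows of that length in the table, and 5 of the 9 tested list members with a window hold it. Besides Ccn2 and Ccn1 these are Amotl2, Ajuba and Yap1, with log2 fold changes of 0.0028, -0.16 and -0.059. The members whose window lacks it are Wwtr1, Axl, Crim1 and Igfbp3, at 0.011, 0.40, 0.0028 and 0.21. Whether the motif bears on these differences was not tested. A match is a description of the letters and not a bound site. No CArG box, the motif of serum response factor, was found in either window (1.5% of windows hold one). The windows of the same length before S100a9, Camp and Olfm4 were searched for the CEBP motif TTGCNNAA, and no match was found (9.22% of windows hold one).

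Ccn2, also called connective tissue growth factor, measured 43.1, 23.4 and 50 CPM in the controls and 111, 166 and 60 CPM in the treated lungs. All treated lungs exceeded all controls, treated 3 by the least, at a log2 fold change of 1.53 (SE 0.39) and a DESeq2 adjusted p of 0.036. Ccn1, a matricellular protein like Ccn2, measured 149, 112 and 215 CPM in the controls and 329, 344 and 199 CPM in the treated lungs, where treated 3 fell within the control range (log2 fold change 0.88, SE 0.26, unadjusted p = 0.0072). Pthlh, a stretch-responsive signal from epithelium to lipofibroblasts, was low but without overlap, at 0.521, 0.143 and 0.271 CPM in the controls and 1.07, 0.897 and 0.661 CPM in the treated lungs (log2 fold change 1.47, SE 0.68, unadjusted p = 0.059). The stretch-gated channel gene Piezo1 differed by -0.067 (SE 0.26). The median of the 14 tested members was 0.0070 (-0.054 without treated 3 and 0.21 without control 3).

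Ion transport genes, which set the secretion and later the uptake of lung fluid, had 9 of 14 lower and a median of -0.13 (-0.31 without treated 3 and -0.0018 without control 2). Scnn1a, the alpha subunit of the sodium channel that absorbs lung fluid, measured 30.2, 148 and 58.5 CPM in the controls and 31.2, 21.8 and 27.7 CPM in the treated lungs. Its difference of -1.56 (SE 0.51, unadjusted p = 0.0127) rested on control 2, and was -0.72 without that library. The chloride channel Ano1 and the sodium pump subunit Atp1b1 differed by -0.50 (SE 0.23) and -0.33 (SE 0.15), which were -0.20 and -0.14 without control 2.

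Genes that respond to glucocorticoids, hormones that mature the fetal lung, had a median of -0.10 (-0.18 without control 1 and -0.014 without treated 1), with 10 of 13 lower and 11 with an interval within 2-fold. Sult1a1, a sulfotransferase, measured 45.6, 116 and 60.2 CPM in the controls and 36.6, 43.1 and 30.7 CPM in the treated lungs and did not overlap (log2 fold change -1.0, SE 0.30, unadjusted p = 0.00842), and its difference was -0.52 without control 2. The clock gene Per1 and the kinase gene Sgk1 differed by -0.31 (SE 0.15) and -0.35 (SE 0.17), and the receptor Nr3c1 by -0.045 (SE 0.12). Without control 2, Per1 differed by -0.11 and Sgk1 by -0.21.

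Genes of cholesterol and fatty acid synthesis, which also feed surfactant lipid, had mostly lower estimates, with 23 of 27 below 0, 4 at an unadjusted p under 0.05 and 3 without overlap. Their median was -0.15, from -0.25 without treated 2 to -0.031 without treated 3, and 25 had an interval within 2-fold. Scd, the desaturase that makes monounsaturated fatty acids, measured 36.6, 20.9 and 34.2 CPM in the controls and 11.8, 16.9 and 18.7 CPM in the treated lungs (log2 fold change -0.96, SE 0.40, unadjusted p = 0.0394). Srebf1, the transcription factor that drives fatty acid synthesis, measured 67.3, 72.9 and 65.2 CPM in the controls and 52.6, 53.9 and 62.1 CPM in the treated lungs (log2 fold change -0.28, SE 0.11, unadjusted p = 0.0267). Dhcr7, of the last step of cholesterol synthesis, differed by -0.32 (SE 0.13, unadjusted p = 0.0353). None of these 3 overlapped, while Fasn (fatty acid synthase) did (log2 fold change -0.44, SE 0.22, unadjusted p = 0.0777), at -0.083 without control 2. The untreated hypoplastic lungs, compared with the same controls, had a list median of 0.092.

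All 20 genes of proliferation tested had a higher estimate in treated lungs and a 95% interval within 2-fold, but none had an unadjusted p under 0.05 or was without overlap. The median was 0.12, 0.017 without treated 1 and 0.26 without treated 3, and as few as 11 had an estimate above 0 when 1 library was left out. Mki67, a marker of cycling cells, measured 254, 309 and 223 CPM in the controls and 387, 322 and 240.1 CPM in the treated lungs, with treated 3 between the controls (log2 fold change 0.27, SE 0.18, unadjusted p = 0.158). The mitotic kinase Plk1, the survivin gene Birc5 and the topoisomerase Top2a differed by 0.23, 0.28 and 0.088. Summed over the list, the level was 2372, 2196 and 1937 CPM in the controls and 2592, 2611 and 1841 CPM in the treated lungs.

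Autophagy genes had a median of -0.040 (-0.11 without treated 3 and -0.0085 without control 3) and all 20 intervals within 2-fold. Map1lc3a, a microtubule-associated LC3 protein of the autophagosome, was lower in all 3 treated lungs, at 108, 156 and 129 CPM in the controls and 95, 105 and 105 CPM in the treated lungs (log2 fold change -0.37, SE 0.13, unadjusted p = 0.022), and the difference was -0.22 without control 2. Atg16l1, which helps to attach LC3 to lipid, did not overlap either (log2 fold change -0.17, SE 0.14, unadjusted p = 0.232). Wipi1 and Gabarap, of the same machinery, differed by -0.14 and -0.035.

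The receptors of osteopontin and most mediators of leptin signalling had intervals within 2-fold. Of the tested osteopontin receptors, the integrin subunits Itgb1, Itga5 and Itga8 differed by -0.078 (SE 0.15), 0.28 (SE 0.26) and -0.30 (SE 0.19), and all 7 members other than Spp1 had an interval within 2-fold. In leptin receptor signalling 9 of 11 tested members had such an interval, Lepr not among them. Socs3, a feedback inhibitor of cytokine receptors, differed by 0.56 (SE 0.26, unadjusted p = 0.0612), 0.31 without control 2, and the adaptor Irs2 by 0.28 (SE 0.27). The ligand leptin did not pass the filter.

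Several interferon response genes were high in 1 treated lung. Of 20 tested of 22 listed, 19 had a higher estimate at a median of 0.94, which became -0.091 without treated 3. The 3 members without overlap, all higher, were Ifit1, Ifit3 and Oas2. Mx1, an antiviral GTPase, measured 1.92, 2.73 and 4.26 CPM in the controls and 1.59, 2.61 and 33.4 CPM in the treated lungs. Isg15, a ubiquitin-like antiviral protein, measured 0.429, 0.0892 and 0.244 CPM in the controls and 0.237, 0.383 and 4.55 CPM in the treated lungs. For both, treated 1 and treated 2 did not exceed the highest control, and without treated 3 the differences were -0.50 for Mx1 and 0.26 for Isg15. Oas2, which makes the activator of RNase L, differed by 3.5 (SE 1.53, unadjusted p = 0.0452), from very low levels of 0.0766, 0.125 and 0.0814 CPM in the controls and 0.184, 0.347 and 2.77 CPM in the treated lungs, and by 1.52 without treated 3.

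Chemokine and inflammation genes were higher in estimate in 18 of 19 tested of 21 listed, with a median of 0.66 (0.42 without control 2 and 1.07 without control 1). The 5 without overlap were Il6, Cxcl2, Il1a, Il1rn and Ptgs2, and 1 had an unadjusted p under 0.05. That gene, Il1r2, a decoy receptor of interleukin-1, measured 1.12, 0.838 and 0.827 CPM in the controls and 2.87, 0.753 and 2.75 CPM in the treated lungs (log2 fold change 1.18, SE 0.48, unadjusted p = 0.0356). Ptgs2, the inducible cyclooxygenase, measured 14.3, 9.83 and 10.3 CPM in the controls and 45.9, 14.4 and 15.3 CPM in the treated lungs, without overlap and with treated 1 far above the rest (log2 fold change 1.13, SE 0.78, unadjusted p = 0.177), and without treated 1 the difference was 0.37. Nfkbia, an inhibitor and target of NF-kB, differed by 0.32 (SE 0.41), and by 0.076 without control 2 and 0.012 without treated 2. Icam1, an adhesion molecule, was the 1 tested member with an interval within 2-fold, and for the rest the interval reached past 2-fold.

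Macrophage markers had 12 of 13 tested higher and a median of 0.60, which was -0.12 without treated 3. Their summed level was 449, 284 and 562 CPM in the controls and 454, 452 and 746 CPM in the treated lungs, and control 2 was the lowest library. Adgre1 (F4/80), a surface receptor of macrophages, measured 5.76, 1.18 and 5.91 CPM in the controls and 8.64, 7.08 and 16.8 CPM in the treated lungs and did not overlap (log2 fold change 1.33, SE 0.53, unadjusted p = 0.0334, and 0.86 without treated 3), while Lyz2 (lysozyme) differed by 0.18 (SE 0.19). Treated 3 was the highest library in these markers and in the interferon response genes, while control 2 was the lowest control in the first and the highest control in the second. The part of macrophage number in the interferon response genes was not tested.

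**Figure D4:**
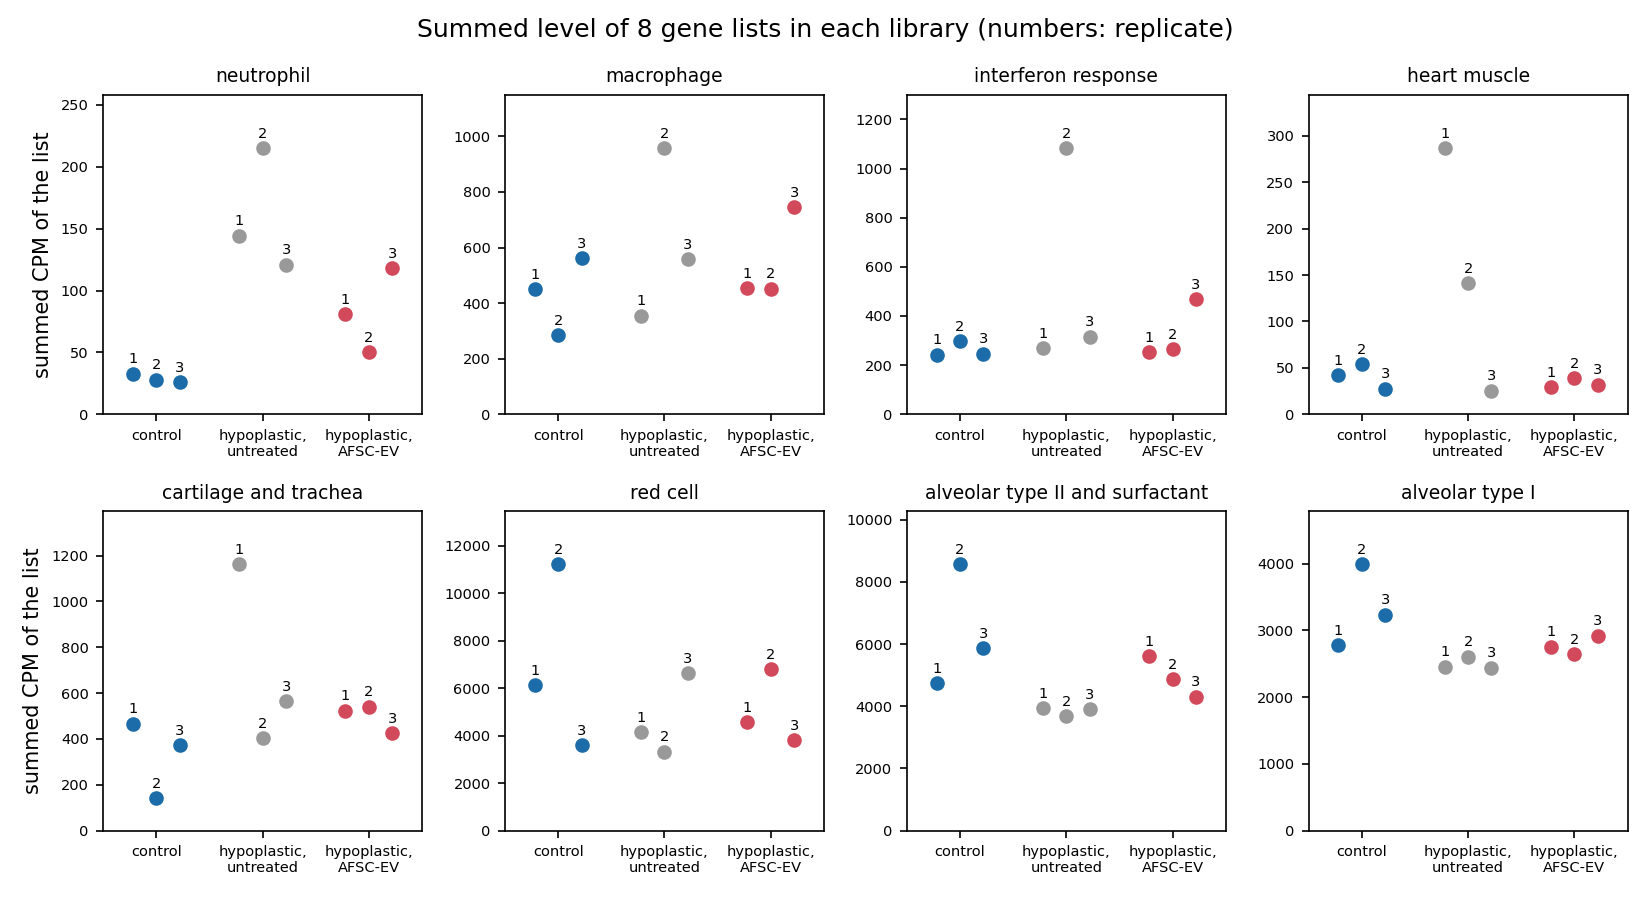
Summed level (CPM, linear axis from 0) of 8 gene lists in each library, numbered by replicate. The summed level of neutrophil genes is higher in all 3 treated than in all 3 control libraries. S100a8, S100a9 and Lcn2 make up most of that sum, and without them treated 2 is not above the controls. Treated 3 is the highest of these 6 in macrophage and interferon response genes. Control 2 is the highest of the 6 in both alveolar lists, in red cell genes and in heart muscle genes, whose sum in these 6 is mostly Ryr2. It is the lowest in cartilage genes.

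Markers of other cell types and tissues were checked for tissue that a dissected lung can carry. Of 6 tested genes of the mesothelium, the outer lining of the lung, 2 had a higher and 4 a lower estimate. Their median was -0.36 (-0.42 without treated 3 and -0.19 without treated 2), and 2 of the lower genes had an unadjusted p under 0.05. Upk1b, a tetraspanin of mesothelium and urothelium, measured 7.22, 8.99 and 10.1 CPM in the controls and 4.38, 0.921 and 3.02 CPM in the treated lungs (log2 fold change -1.67, SE 0.48, unadjusted p = 0.00651), and Aldh1a2, which makes retinoic acid, measured 31, 31.4 and 29.7 CPM in the controls and 25.9, 16.7 and 23.6 CPM in the treated lungs (log2 fold change -0.48, SE 0.19, unadjusted p = 0.0348). Neither overlapped, while Krt19, a keratin that airway epithelium also expresses, differed by -0.24 (SE 0.23). The summed level of the list, most of it from Krt19, was 256 to 363 CPM in the controls and 224 to 282 CPM in the treated lungs.

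Heart muscle genes were low in both groups, at 27.7 to 53.7 CPM in the controls and 29.1 to 38.6 CPM in the treated lungs when summed, with a median of -0.88 (-0.29 without control 1). Tnni3, cardiac troponin I, measured 2.42, 1.71 and 1.42 CPM in the controls and 1.34, 1.15 and 0.866 CPM in the treated lungs (log2 fold change -0.72, SE 0.59, and -0.46 without control 1) and Ryr2, the cardiac calcium release channel, differed by -0.16 (SE 0.25). Ryr2 made up most of the summed level of heart muscle genes in both groups. Cartilage genes, which the larger airways carry, summed to 466, 141 and 372 CPM and 523, 541 and 426 CPM, and Col2a1, the cartilage collagen, differed by 0.62 (SE 0.42) (0.25 without control 2). Red cell genes had 7 of 11 tested higher and 4 lower at a median of 0.11 (-0.25 without control 3 and 0.61 without control 2), and summed to 3587 to 11204 CPM in the controls and 3814 to 6787 CPM in the treated lungs. Alas2, the first enzyme of heme synthesis in red cells, differed by -0.77 (SE 0.35, unadjusted p = 0.0553), and Hbb, a beta globin whose copies may share reads, by -0.57 (SE 0.43), which were -0.39 and -0.046 without control 2.

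Among airway markers, Olfm4 alone had an unadjusted p under 0.05. Ccdc39, a protein of motile cilia, measured 3.34, 7.08 and 3.39 CPM in the controls and 2.46, 3.34 and 2.47 CPM in the treated lungs and did not overlap (log2 fold change -0.73, SE 0.33, unadjusted p = 0.0511, and -0.28 without control 2), and 5 of 6 ciliated cell genes were lower, at a median of -0.36 that was 0.12 without control 2. Scgb1a1, the secretoglobin of club cells, measured 184, 336 and 252 CPM in the controls and 186, 258 and 269 CPM in the treated lungs (log2 fold change -0.11, SE 0.25). Median differences were -0.20 for club and secretory genes, -0.045 for basal and squamous genes, -0.020 for neuroendocrine genes, -0.093 for lymphocyte and thymus genes, 0.20 for skeletal muscle genes and 0.29 for nerve and glia genes. Without control 2 they were 0.17 for club and 0.38 for basal genes, without control 3 0.14 for neuroendocrine and 0.28 for lymphocyte genes, without treated 2 -0.27 for skeletal muscle genes and without control 1 0.65 for nerve genes. In the last 3 of these lists no tested gene had an unadjusted p under 0.05. Liver genes were near absent, summing to 1.34 to 6.55 CPM in the controls and 3.13 to 4.48 CPM in the treated lungs.

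Where the untreated hypoplastic lungs lay is given by their own values, since both comparisons share the control libraries. For Lepr the untreated level was 13.5, 9.85 and 13.7 CPM, for Tacr1 2.84, 4.57 and 3.56 CPM and for Il1rl1 5.38, 15.1 and 6.39 CPM. For S100a9 it was 36.1, 21.6 and 31.9 CPM, for Olfm4 40.5, 23.9 and 29.9 CPM and for Ccn2 64.5, 108 and 61.8 CPM. Against control, the untreated lungs had log2 fold changes of -1.28 for Lepr, 1.12 for Tacr1, 5.01 for Spp1, 3.32 for S100a9 and 1.0 for Ccn2. Their list medians against control were -0.59 for alveolar type II genes, -0.44 for alveolar type I genes, -0.17 for epithelial transcription factors, 2.37 for neutrophil genes and 2.76 for interferon response genes, beside -0.34, -0.24, 0.028, 1.28 and 0.94 in the treated lungs. In the interferon response genes 1 untreated library stood apart, with summed levels of 268, 1083 and 315 CPM in untreated lungs 1 to 3 beside 242 to 297 CPM in the controls.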

How the data were processed

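RNA of 9 whole fetal rat lungs, extracted on 1 day per the labels' protocols, was sequenced after ribosomal RNA depletion. The authors deposited estimated counts (expected counts, not normalized) for 17465 genes by NCBI Gene ID, and 19.5% of the nonzero values were whole. The submitters' processing notes name the build rn7 and DESeq2, without roles. The aligner, the annotation and the treatment of reads that match several genes are not stated in what was used here. Symbols came from a RefSeq table of assembly GRCr8 (names only, 99.1% matched), so no coordinates of the counted genes are given, and promoter windows are those of RefSeq on GRCr8.

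Counts were rounded and tested with edgeR 4.0.16 in R 4.3.3 (TMM, filterByExpr, glmQLFit with legacy=FALSE, glmQLFTest). A single model held all 9 libraries, with group as its factor and 6 residual degrees of freedom, and p-values were adjusted by Benjamini-Hochberg over 12966 genes. The filter set aside 4499 genes, 2547 of them at 0 throughout. The design had been planned for whole counts, and rounding is the only change. Standard errors are the absolute log2 fold change over the square root of F, intervals use t quantiles at the fit's total degrees of freedom, and both are approximate. The script was tested on simulated data. DESeq2 1.42.0 and limma 3.58.1 (voom) were alternatives, beside other scaling factors and filters, only the 6 libraries compared, sex or replicate number as a term, removal of 6 ribosomal and 7SL RNA rows (14.7 to 19.9% of counts in the 6 libraries), and each library left out.

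The members and lists were chosen with earlier results of these data known. Named were the 12 genes higher and 12 lower of smallest p with a mean of at least 1 CPM and a gene symbol, each gene called by edgeR or DESeq2, 9 fixed genes, and in each of 19 tissue lists and 14 marker lists up to 3 members of smallest p and the one of highest CPM (of the marker lists, a choice of these). Leprot, Hmgb2, Ifit1, Smad2, Ifit3, Icam1, Il6, Cxcl2, Il1a and Il1rn were added after their values were seen. A few members of the lists are counted but not reported here by name. Libraries of 1 group differed by more than sampling noise (the smallest chi-square was 132 times its degrees of freedom). Their common biological coefficient of variation, by edgeR, was 0.253.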

Additional observations from a re-analysis of the deposited data

How the results depend on the processing

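The count of genes called by edgeR was 0 under every other scaling and filter, in limma voom, with only the 6 libraries compared and with sex as a term, and 0 to 1 when single libraries were left out. The 1 call was Ifit1, without control 2 (adjusted p = 0.0184), and DESeq2 called 14. The total counts at an unadjusted p under 0.05 and with an interval within 2-fold stayed within 1.5 times of the values given wherever they were recomputed, as did the count without overlap under the other scalings and filters (it was not recounted without single libraries). The balance of directions turned without control 2: of 382 genes at an unadjusted p under 0.05, 210 were higher and 172 lower. With sex as a term, 163 of 368 were higher and 205 lower, beside 217 higher and 324 lower in the main fit. DESeq2 calls, recounted without single libraries after they had been seen, numbered 12 to 29. Deviations from the group mean of same-numbered control and treated libraries correlated at -0.145 to 0.227, 2 of 3 pairs over 0.1. For control and treated libraries of different number the range was -0.28 to 0.185. With only 3 same-numbered pairs and overlapping ranges, these values cannot decide whether lungs of the same number belong together. With the replicate block as a term edgeR called 0 genes, and 482 had an unadjusted p under 0.05. Some named genes changed sign when single libraries were left out, at log2 fold changes of Nkx2-1 -0.046 to 0.15, Sox9 -0.19 to 0.21, Fgf10 -0.068 to 0.085, Smad3 -0.091 to 0.21, Vegfa -0.065 to 0.16, Cebpa -0.37 to 0.035, Ctnnb1 -0.044 to 0.015, Mfap4 -0.22 to 0.30, Mylk -0.17 to 0.26, Col3a1 -0.33 to 0.57, Pecam1 -0.18 to 0.17, Piezo1 -0.32 to 0.064, Nr3c1 -0.16 to 0.027, Top2a -0.011 to 0.25, Mx1 -0.50 to 2.59, Gabarap -0.13 to 0.049, Scgb1a1 -0.29 to 0.13, Ryr2 -0.29 to 0.17 and Leprot -0.18 to 0.019. With sex as a term, Sox9 was at -0.0861 and Pecam1 was at -0.00943. With the replicate block as a term, Mfap4 was at 0.00779 and Pecam1 was at -0.0114. With limma voom, Mfap4 was at 0.0116 and Pecam1 was at -0.00901. With upper-quartile factors, Pecam1 was at -0.00323. With the CPM filter, Pecam1 was at -2.63e-05. The cause of these changes was not tested. With 3 lungs a group edgeR's median SE was 0.18, and for genes other than the 10060 whose interval lay within 2-fold, these data did not bound the difference to that size.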

Other observations

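Ifit1, an interferon-induced protein that binds foreign RNA, measured 0.567, 24.4 and 0.0542 CPM in control lungs 1 to 3, 30, 30.9 and 26.9 CPM in the treated lungs and 25.3, 44 and 32.6 CPM in the untreated hypoplastic lungs. Control 2 alone was near the level of the other groups, the other control lungs being below 1 CPM. The treated minus control log2 fold change was 1.83 (SE 1.21) with all libraries and 6.61 without control 2, where edgeR's adjusted p was 0.0184. Ifit1 was chosen for mention after its values were seen.

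Among the 4499 genes that the filter set aside, 46 had all treated libraries above all controls and 70 had all below. None of these was tested.

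Xist, the RNA of the inactive X chromosome, had 2102 counts in control 1, a library with 3976 counts of the Y-linked gene Ddx3y. Control 2 and treated 3, which also carried Ddx3y, had 55 and 14 counts of Xist. Control 3, with 159764 counts of Xist, had 18 of Ddx3y and 23 of Eif2s3y, where treated 1 and treated 2 had 0 of each. Whether RNA was shared between control 1 and control 3 was not tested.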
